A study of Mus musculus with 18 samples.

Results

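The samples described here are the last interval of the doxycycline-treated gastruloid course, from day 3 to day 5. All 6 libraries labelled Dox at day 3 (3 libraries) or day 5 (3 libraries, labelled 120 h) were taken, of 18 libraries in the series. Every library, controls included, comes from the RHKI line, a derivative of the mouse embryonic stem cell line E14Tg2a that carries an HA-Rnaseh1 knock-in, and the cells were grown in 2i/LIF medium with 2% FBS. Dox cells received doxycycline at 500 ng/ml for 48 h and were then placed into gastruloid differentiation, and the labels do not say whether the drug was kept on afterwards. The control libraries of day 3 (3) and day 5 (3) have the same genotype and no Dox label, and they are used here only to test where the Dox course differed. The line is a single knock-in line, the counts do not separate knock-in from native Rnaseh1 transcripts, and nothing in the labels says that replicates were separate cultures. The p-values below therefore measure a spread between libraries, which may be technical. That spread was estimated over all 18 libraries of the series, those of day 0 included.

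Gastruloids are aggregates of embryonic stem cells that form an axis in culture and pass through states resembling the epiblast, the primitive streak and the tailbud before they make neural tube and somites. RNase H1, the product of Rnaseh1, cuts the RNA in hybrids of RNA and DNA (R-loops), and H2A.Z is a histone variant found at promoters. In the embryo, Wnt and Fgf signals keep the posterior progenitor pool, and retinoic acid and Notch signals act in the neural tube and somites that leave it.

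Gene-level counts summed to between 27302352 and 32692650 per library in these 6 libraries. Levels are given in CPM, counts scaled to a common library size with the trimmed mean of M-values, and, where different genes are set against each other, in TPM, the deposited transcript abundances, which account for length. A gene is said to have risen or fallen where edgeR's quasi-likelihood test gave a Benjamini-Hochberg adjusted p under 0.05 over the 17795 genes tested. Between day 3 and day 5, 5732 genes (32.2%) rose and 5857 (32.9%) fell, so 65.1% of all tested genes were called, and the 6 libraries of the 2 days did not overlap for 74.3% of genes. The median log2 fold change over all genes was -0.01, with the 25th and 75th percentiles at -0.55 and 0.51. Scaling by library size alone moved all log2 fold changes by a median of 0.04. Counts of list members below stand beside these shares. The lists were chosen with earlier results of these data known, so such counts describe the lists and are not a test. Gene positions are from GENCODE M21 on GRCm38. These are bulk libraries, so fewer cells of a type and less RNA per cell cannot be told apart for any gene named here.

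Genes that rose carried 15.2% of all TPM at day 3 and 26.2% at day 5, and genes that fell carried 63.0% and 50.5%. At least 1 log2 unit of change was seen in 2341 genes that rose and 2679 that fell. At 3 log2 units or more the falling side was the larger, with 1031 genes against 637. From under 0.5 CPM in every day 3 library to over 5 CPM in every day 5 library, 68 genes (0.382%) were switched on, of which 57 are annotated as protein coding. In the opposite direction 88 genes (0.495%) were switched off, 84 of them protein coding.

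Rnaseh1 itself stood at 67.9, 70.2 and 66.1 CPM in the 3 Dox libraries of day 3 and at 53.7, 57.4 and 60.4 CPM at day 5. Every day 5 library lay below every day 3 library. The fall was 0.25 log2 units (SE 0.07, adjusted p 0.0061), and the control course gave the same log2 fold change of -0.25 from a lower level, with day 3 control libraries at 22.2, 24 and 24.1 CPM. Hprt, a purine salvage enzyme, moved the other way, from 90.7, 86.5 and 87.8 CPM to 181, 208 and 208 CPM. In the control libraries Hprt stood at 20.5, 20.6 and 19 CPM at day 3 and at 20.2, 21.2 and 20.2 CPM at day 5. Its Dox course therefore rose by 1.17 log2 units (SE 0.08) where the control course gave 0.03. This difference of 1.14 log2 units passed the test of the courses against each other (adjusted p 7.5e-05). Gene-level counts do not show which part of Hprt the reads come from, and why it differed was not tested.

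Most pluripotency genes fell between day 3 and day 5. Pou5f1 (chr17:35506018-35510772), the core pluripotency factor Oct4, stood at 1027, 1116 and 1083 CPM at day 3 and at 5.63, 4.15 and 3.96 CPM at day 5. Nanog, its partner in the self-renewal network, stood at 253, 260 and 250 CPM and then at 2.65, 1.80 and 1.79 CPM. The day 3 libraries were alike and all far above the day 5 libraries, with log2 fold changes of -7.88 (SE 0.17, adjusted p 2.2e-17) for Pou5f1 and -6.93 (SE 0.12, adjusted p 1.5e-18) for Nanog. L1td1, an RNA-binding protein of pluripotent cells, went from 355, 391 and 373 CPM to 1.98, 1.49 and 1.53 CPM. Of 11 core pluripotency genes tested, 8 fell and 2 rose, with a median log2 fold change of -2.94. The genes that rose were Sox2 (from 32.2, 28.9 and 26.9 CPM to 245, 266 and 256 CPM), which is also a neural progenitor factor, and Lin28b, which blocks let-7 maturation (log2 fold change 0.50). Trim71, a translational repressor of stem cells, was the member that did not pass, at 252, 258 and 260 CPM and then 252, 246 and 248 CPM.

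Markers of the naive state were at no more than 54.5 CPM at day 3 and most fell further. Of 15 naive markers 12 fell and 3 did not pass, with a median log2 fold change of -1.75. Restricting the fit to the day 3 and day 5 libraries tests 12 of them and puts the median at -2.78. Tfcp2l1, a naive-state transcription factor, went from 34.4, 33.6 and 34.4 CPM to 3.07, 2.10 and 2.25 CPM. Klf2, another member of that network, went from 17.7, 14.9 and 17.5 CPM to 2.22, 1.25 and 1.47 CPM. Prdm14, Dppa3 and Tcl1, the members without a call, stayed under 0.3 CPM in all 6 libraries.

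The formative epiblast set fell more steeply, with 9 of 10 members down and a median of -4.25. Fgf5, the epiblast growth factor, was at 58.6, 71.8 and 70 CPM and then at 0.548, 0.457 and 0.491 CPM, a log2 fold change of -7.05 (SE 0.22, adjusted p 2.4e-15). Dnmt3b, the de novo DNA methyltransferase of the epiblast, fell from 800, 871 and 842 CPM to 80.1, 75.4 and 71.3 CPM. Otx2, a factor of epiblast and anterior brain, fell from between 8.27 and 11.3 CPM to at most 0.433 CPM. Tead2, an effector of Hippo signalling, was the member that rose, from 282, 282 and 291 CPM to 435, 462 and 452 CPM.

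The streak and tailbud programs went down together with these. T (chr17:8434423-8442496), which encodes Brachyury, stood at 390, 483 and 483 CPM at day 3 and at 4.26, 4.05 and 3.32 CPM at day 5. All day 5 libraries lay below all day 3 libraries, and the log2 fold change was -6.87 (SE 0.20, adjusted p 1.2e-15). Eomes, a T-box factor of mesoderm and endoderm progenitors, was at 22.1, 43.3 and 36 CPM and then had 2 counts in all at day 5, a ratio of 1662 with a 95% counting interval from 461 to 13760. Day 3 replicate 1 was the lowest of its group for T, Eomes and Mixl1, and the summed CPM of the streak list was 602.5 there against 763 and 726. Nodal, the TGF-beta ligand that induces the streak, went from 66.8, 79.2 and 67.1 CPM to at most 0.791 CPM. Evx1, a homeobox gene of the posterior streak, was at 9.40, 13.3 and 11.1 CPM and had no count in any day 5 library, so it was at least 126-fold lower against a floor of 3 counts per library. Of 10 streak markers tested 9 fell, with a median of -6.73, and Lhx1 did not pass, at no more than 0.335 CPM in any library.

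In the tailbud list 8 of 12 genes fell and 4 rose, with a median of -5.63. Cdx1, a caudal homeobox factor, was at 54, 48.7 and 57.2 CPM at day 3 and at 0.0913, 0 and 0.144 CPM at day 5. Cdx2 followed from 42.3, 35 and 43.5 CPM to 0.913, 0.457 and 0.520 CPM. Nkx1-2, a marker of neuromesodermal progenitors, fell from 226, 200 and 226 CPM to 2.31, 1.16 and 1.68 CPM. The libraries of the 2 days were widely separated for all of these. The members that rose were Gdf11, a trunk-to-tail TGF-beta ligand (12.9, 12.9 and 13.1 CPM to 48.8, 52.5 and 51.9 CPM), Sp8, Wnt5a and Wnt3a. Wnt3a was near its detection limit, at no more than 1.10 CPM, and its call (adjusted p 0.04) was lost when any of 5 libraries was left out, with adjusted p up to 0.16.

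The promoters of Nanog and Sp5 are printed here because both genes fell by more than 100-fold and each holds, in the 250 bases before its start, a short match to a kind of site that Oct4 or Lef/Tcf factors bind. The sequences are from RefSeq on GRCm38.p6, both on the forward strand. Nanog lies at chr6:122707239-122707488, with capitals on the match to the octamer core ATGCAAA, the kind of site Oct4 binds, which sits on the opposite strand 75 to 69 bases before the start. Sp5 lies at chr2:70474673-70474922, with capitals on the match to the Lef/Tcf site ATCAAAG, also on the opposite strand, 104 to 98 bases before the start.
Nanog: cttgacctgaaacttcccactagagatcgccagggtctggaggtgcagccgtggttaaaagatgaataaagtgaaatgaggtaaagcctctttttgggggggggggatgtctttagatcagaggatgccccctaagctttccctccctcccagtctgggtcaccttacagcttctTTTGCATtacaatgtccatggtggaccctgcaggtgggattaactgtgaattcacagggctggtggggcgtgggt
Sp5: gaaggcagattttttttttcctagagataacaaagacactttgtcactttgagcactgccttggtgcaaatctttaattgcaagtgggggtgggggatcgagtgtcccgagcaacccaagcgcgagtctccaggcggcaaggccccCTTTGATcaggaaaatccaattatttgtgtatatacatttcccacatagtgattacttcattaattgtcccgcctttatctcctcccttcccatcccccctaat
Both strands of 32851 promoters were searched, each from 250 bases before to 50 bases after the start. The octamer core was found in 4.63% of all of them, in 3.12% of promoters of genes that rose and in 3.83% of those that fell. The Lef/Tcf site was found in 3.73%, 2.42% and 2.48%. Neither match was more frequent among genes that fell than among all promoters, which include those of genes without a call. The 2 matches are a description of these promoters alone.

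**Figure D1:**
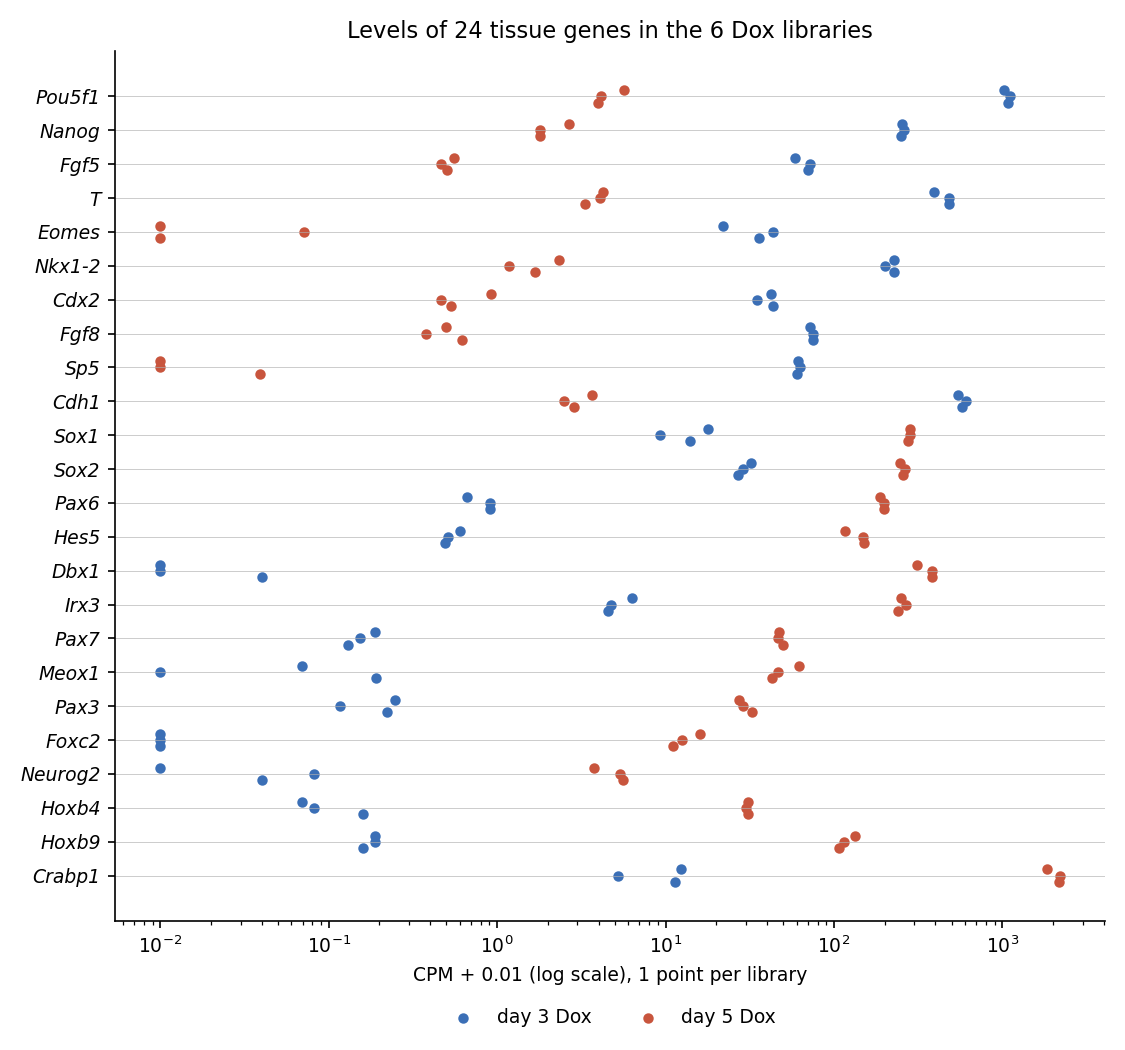
CPM with 0.01 added, on a log axis, of 24 tissue genes in the 6 Dox libraries, with 1 point per library in blue for day 3 and red for day 5. The genes from Pou5f1 to Cdh1 sit to the right at day 3 (1027 to 1116 CPM for Pou5f1) and to the left at day 5, and those from Sox1 to Crabp1 make the opposite move.

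Neural progenitor genes rose as a group. All 12 listed neural progenitor genes rose, under each alternative tried for the lists, with a median log2 fold change of 3.35. Sox1 (chr8:12395295-12400126), a marker of the neural plate, went from 17.9, 9.31 and 13.9 CPM to 281, 284 and 275 CPM. Pax6, a homeobox factor of the neural tube, went from 0.655, 0.892 and 0.902 CPM to 189, 198 and 199 CPM. The lowest day 5 library was above the highest day 3 library by a wide margin for both, with log2 fold changes of 4.34 (SE 0.23, adjusted p 6.2e-12) and 7.91 (SE 0.17, adjusted p 1.7e-17). Cdh2, the cadherin of neural tissue, rose from 38, 30.8 and 36.9 CPM to 425, 419 and 411 CPM. Summed over the list, the day 5 libraries held 2428, 2644 and 2636 CPM, so replicate 1 was the lowest. Hes5 and Vim were also lowest in that library, Vim at 362, 488 and 494 CPM.

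Among positional genes of the neural tube, those of intermediate levels rose together. All 5 tested genes of the intermediate neural tube rose, with a median of 5.60. Dbx1 (chr7:49631499-49636849), which marks a progenitor domain in the middle of the neural tube, had 1 count in the 3 day 3 libraries together and stood at 312, 381 and 382 CPM at day 5. That made it the largest rise among the named genes of the Dox course, with a ratio of 35770 and a 95% counting interval from 6112 to 1345000. Irx3, an Iroquois factor of the same domains, went from 6.28, 4.71 and 4.57 CPM to 251, 268 and 239 CPM. Of 9 dorsal genes 4 rose and 3 fell. Pax7, a dorsal progenitor factor, was the strongest of these, from 0.178, 0.143 and 0.120 CPM to 47.4, 46.7 and 50 CPM. The roof plate genes Wnt1 and Gdf7 stayed at or under 0.76 CPM, and Msx1 fell from 5.12, 7.71 and 6.67 CPM to 1.22, 1.13 and 1.24 CPM. Of 4 ventral genes 2 rose and 1 fell, with Nkx6-1 at 4.01, 5.09 and 4.24 CPM the highest of them at day 5 and Olig2 at no more than 0.289 CPM.

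Neuronal genes showed a mixed pattern, with 9 of 15 up, 3 down and a median of 0.74. The proneural factors Neurog1 and Neurog2 came up from near 0. Neurog2 had 3 counts in all at day 3 and stood at 3.77, 5.34 and 5.60 CPM at day 5, and Neurog1 stood at 2.07, 4.36 and 3.98 CPM. Elavl3, an RNA-binding protein of young neurons, rose from 4.91, 6.21 and 5.95 CPM to 30.3, 33.8 and 40.8 CPM. Stmn2, a microtubule regulator of growing axons, fell instead, from 49.2, 47.8 and 51 CPM to 11.3, 10.5 and 10.9 CPM, and the neurofilament genes Nefl and Nefm fell with it (log2 fold changes -1.14 and -1.02). Isl1, a motor and sensory neuron factor, stayed at or under 0.426 CPM.

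Genes of the anterior brain gave no common direction. Of 9 tested, 3 rose and 3 fell, and the median was 1.19, or 0.15 once the member without a day 3 count was put at its bound. Lhx2 and Fezf1 rose to no more than 2.22 CPM. En2, a midbrain and hindbrain factor, fell from 5.83, 7.99 and 6.97 CPM to 1.89, 2.01 and 1.33 CPM. Neural crest genes were divided, with 5 of 8 up and 3 down. The largest rise among them was Ednrb, the endothelin receptor, from 0.417, 0.428 and 0.301 CPM to 140, 157 and 162 CPM, whereas Sox10, which marks migrating crest, stayed under 0.2 CPM and was not tested.

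Somite genes rose. Of 16 tested 13 rose, 1 fell and 2 did not pass, with a median of 3.82. Meox1 (chr11:101877510-101894374), a homeobox factor of somites, went from 0.0595, 0 and 0.18 CPM to 62.2, 46.5 and 42.8 CPM, a log2 fold change of 9.16 (SE 0.27, adjusted p 1.2e-15). Foxc2, a forkhead factor of paraxial mesoderm, had no count at day 3 and stood at 16.1, 12.5 and 11 CPM, at least 138-fold higher against the floor. Uncx, which marks the caudal side of each somite, went from at most 0.178 CPM to 10.9, 12.4 and 9.96 CPM. Day 5 replicate 1 was the highest library for Meox1 and Foxc2, and its summed CPM over the somite list was 169 against 148 and 139. That library was the lowest of its group for the neural list. Pax3, shared by somites and dorsal neural tube, rose from 0.238, 0.107 and 0.210 CPM to 27.2, 28.8 and 32.5 CPM. Myf5, an early myogenic factor, was the member that fell, from at most 0.499 CPM to at most 0.0578 CPM.

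The presomitic list was split, with 4 of 10 up and 4 down. Its rising members, Lfng, Dll1, Nrarp and Mesp2, are Notch pathway genes or targets. Mesp2 stayed at or under 1.16 CPM and its call was lost in 5 alternatives (adjusted p up to 0.18). Tbx6, which marks presomitic mesoderm, gave no call, at 0.625, 0.821 and 0.421 CPM and then 0.365, 0.640 and 0.635 CPM. Msgn1, its companion marker, had no count in any of the 6 libraries.

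Other lineages were low at day 5. Of 7 cardiac and lateral mesoderm genes tested 1 rose and 2 fell, and none of the 7 was above 1.91 CPM in a day 5 library. In the blood and endothelial list 5 of 11 rose and 3 fell, with between 3 and 6 rising across alternatives. The rising ones (Kdr, Tal1, Cdh5, Sox18 and Esam) were at most 2.66 CPM at day 5. Leaving out single libraries took the adjusted p up to 0.14 for Kdr, 0.063 for Tal1, 0.061 for Sox18 and 0.057 for Esam. The globin genes Hbb-bh1 and Hba-x had no count at day 5. Lmo2, a cofactor of blood progenitors, fell from 11.3, 13 and 13.7 CPM to 0.426, 1.34 and 1.10 CPM. In the endoderm list 4 of 7 fell and 2 rose. Foxa2, a forkhead factor of endoderm, notochord and floor plate, fell from 17, 18.3 and 17.5 CPM to 0.730, 0.793 and 0.606 CPM, and Trh fell from 166, 163 and 171 CPM to at most 2.25 CPM. Of 5 notochord genes 2 rose and 2 fell, and Noto, the notochord homeobox gene, had no count.

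Surface ectoderm, germ cell and extraembryonic markers ended low. The surface genes Grhl2 and Tfap2c fell to at most 2.01 CPM, and Grhl3 fell by 0.50 log2 units with a call that 4 alternatives did not keep (adjusted p up to 0.086). Of 7 germ cell markers 4 fell and 1 rose. Ddx4, a germ cell helicase, went from 9.34, 9.92 and 10.6 CPM to 0.548, 0.274 and 0.0866 CPM, while Prdm1, which is also used in other lineages, rose from 0.893, 1.14 and 0.752 CPM to 6.05, 4.33 and 3.67 CPM. Of 6 extraembryonic genes tested 5 fell, none of them above 0.635 CPM at day 5.

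**Figure D2:**
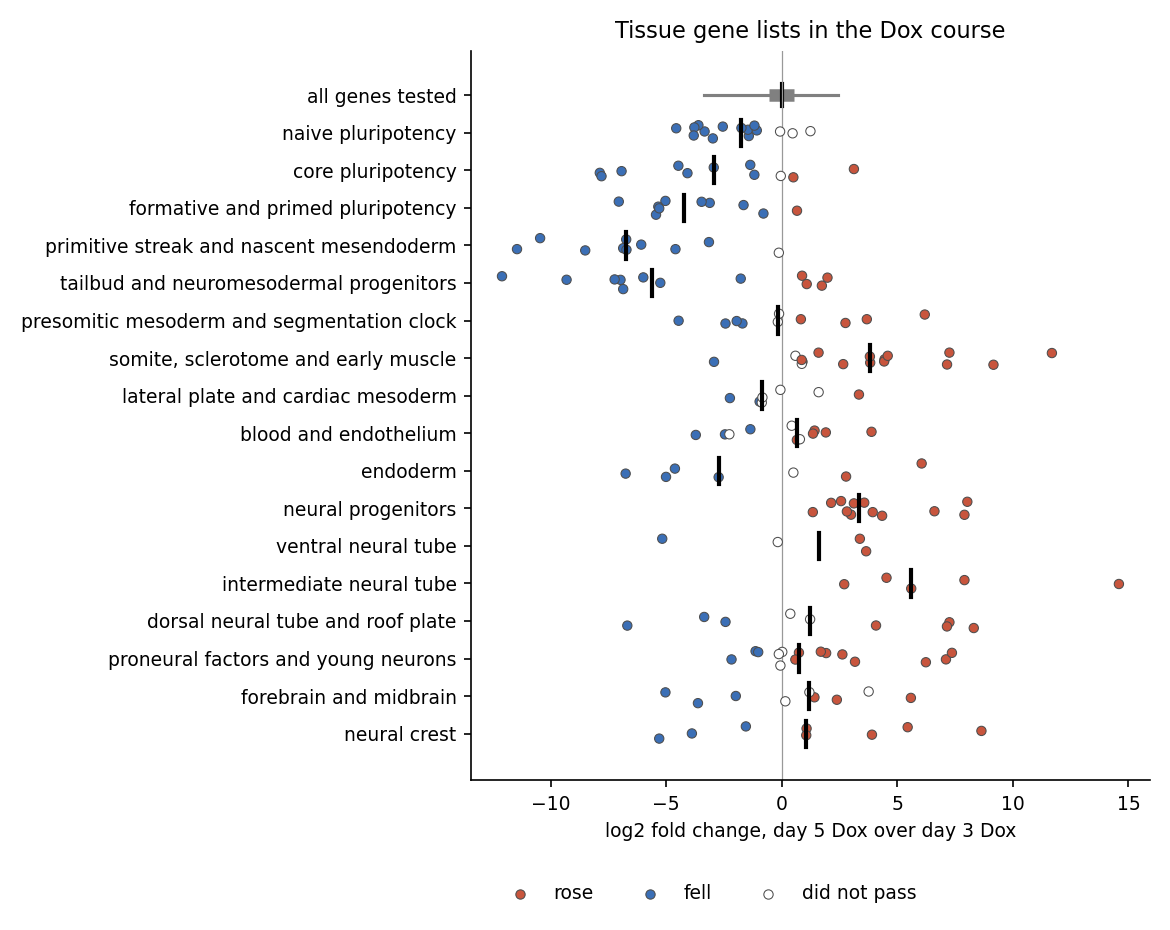
Log2 fold change from day 3 to day 5 in Dox libraries, 1 point a gene, for each tissue list, with a black bar at the list median and colour for genes that rose, fell or did not pass. In the row for all genes tested the grey box spans the 25th to 75th percentile. The line there spans the 5th to 95th percentile (-3.37 to 2.43). Medians outside that line are those of the formative (-4.25), streak (-6.73), tailbud (-5.63), somite (3.82), neural progenitor (3.35) and intermediate neural tube (5.60) lists.

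Hox genes, which set position along the body axis and are arranged in 4 clusters in the order in which they are used, were turned on up to group 9. The summed Hoxb level was 19.4, 10.1 and 17.5 TPM at day 3 and 350, 344 and 321 TPM at day 5. The Hoxd sum went from 1.33, 1.34 and 1.06 TPM to 127, 123 and 116 TPM, and the Hoxc sum from 0.25, 0.29 and 0.34 TPM to 39, 35.8 and 34.4 TPM. The Hoxa sum had the smallest ratio of day 5 to day 3, going from 33.8, 19 and 30.5 TPM to 112, 109 and 115 TPM. The Hoxa and Hoxb sums were lowest at day 3 in replicate 2, while all day 5 libraries lay above all day 3 libraries for each cluster.

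Of the 12 genes of groups 1 to 4, 10 rose and 2 fell, with a median of 4.31. Hoxb1 was among those that fell, from 15, 8.10 and 13.7 CPM to 8.24, 6.98 and 6.35 CPM, and its day 3 and day 5 libraries overlapped. Hoxd3 had 2 counts at day 3 and stood at 117, 113 and 110 CPM at day 5, a ratio of 5672 with a 95% counting interval from 1485 to 44300. Of 15 genes of groups 5 to 9, 13 rose and 2 did not pass. Their median was 6.33, or 5.24 with the genes that had no count in a group put at their bound, and 8.44 when only the 6 libraries were fitted, which tests 11 of them. Hoxb8 went from 0.0595, 0 and 0.0902 CPM to 72.1, 76.9 and 69.2 CPM. Hoxb9 went from 0.178, 0.178 and 0.150 CPM to 133, 115 and 108 CPM. Per length, the highest mean levels at day 5 were those of Hoxb2 (104 TPM), Hoxd3 (76.2 TPM), Hoxb9 (75.8 TPM) and Hoxb8 (56.5 TPM). The annotated span of Hoxd3 contains those of Hoxd4 and of Gm28230, a gene at a mean of 44.2 CPM at day 5. The counting could divide reads among them, so the level and rank of Hoxd3 are uncertain.

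Beyond these, levels were at the detection limit. Hoxa9 had no count at day 5, Hoxd9 was at or under 0.0913 CPM, and Hoxc9 reached 0.152, 0.0915 and 0.231 CPM. In groups 10 to 13 no gene exceeded 0.535 CPM in any of the 6 libraries. Of 8 tested 3 fell, and the largest day 5 value among them was 0.061 CPM, for Hoxc13. Hoxb5os, named as an opposite-strand transcript of Hoxb5, had no count at day 3 and 18.9, 15.6 and 16.5 CPM at day 5. The annotated span of Hoxb5os contains those of Hoxb5 and Hoxb6. Whether the counting used strand is not given in the sources used here. Reads of Hoxb5, Hoxb6 and Hoxb5os may therefore be mixed.

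**Figure D3:**
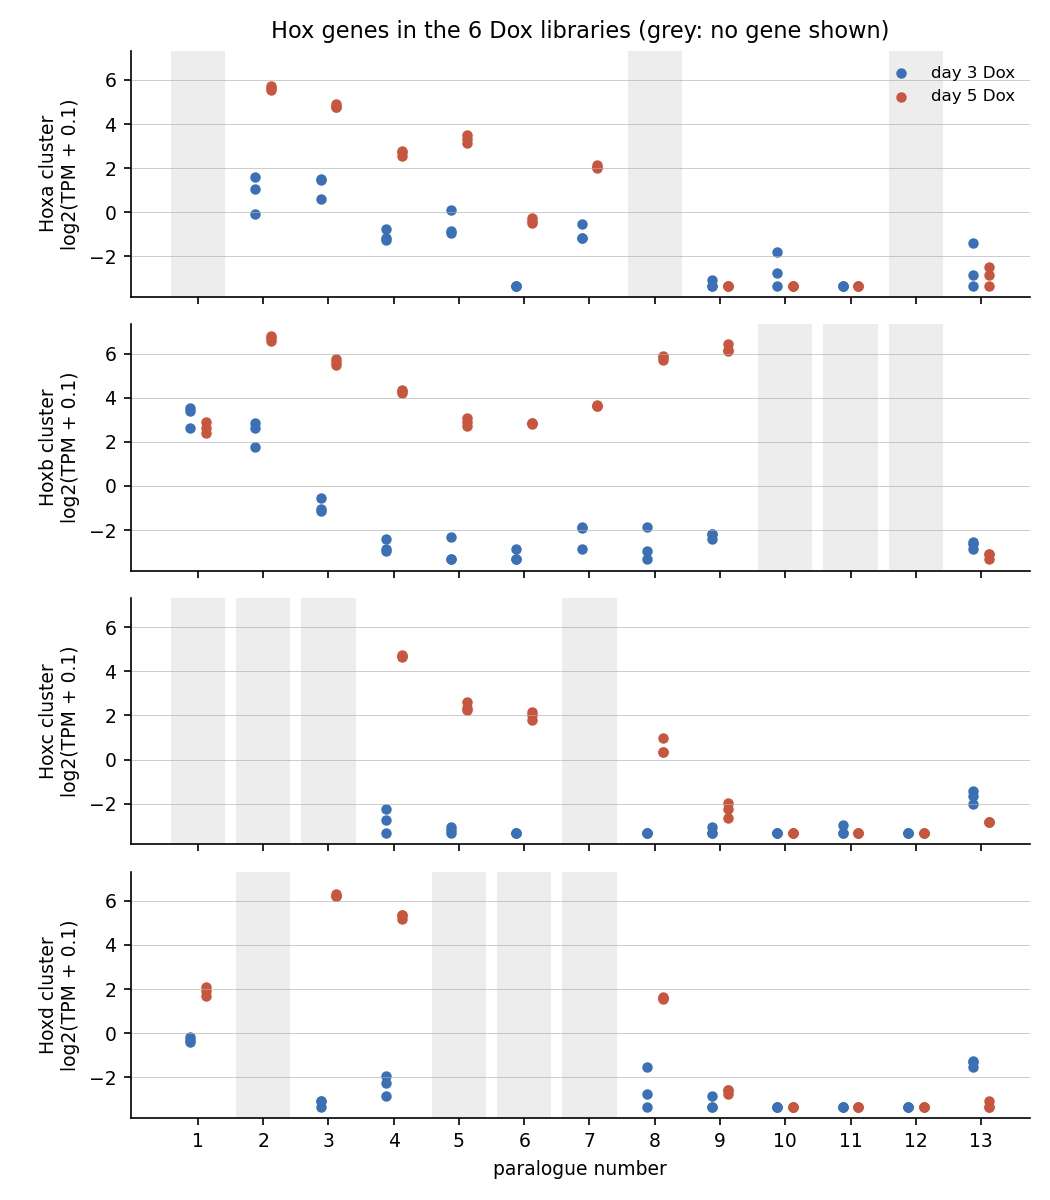
Log2 of TPM with 0.1 added for the Hox genes of each cluster in the 6 Dox libraries, blue for day 3 and red for day 5, by paralogue number, with grey where no gene is shown. Day 5 points stand above day 3 points from groups 2 to 8 and at Hoxb9 (75.8 TPM), overlap them at Hoxb1, and lie near the floor from group 10 on.

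Retinoic acid genes changed in both directions. Of 16 tested 9 rose and 5 fell, with a median of 1.35. The binding proteins gave the largest gains in TPM of all named genes: Crabp1, which holds retinoic acid in the cytoplasm, went from 27.1, 11.3 and 24.9 TPM to 4536, 5201 and 5211 TPM. Crabp2, which carries it to the nucleus, went from 49.4, 41.3 and 47.9 TPM to 2168, 2378 and 2333 TPM. Day 3 replicate 2 was lowest for both, as it was for the early Hox genes. Among the receptors, mean levels went from 0.243 to 39.4 TPM for Rarb, from 26.7 to 49.8 TPM for Rara and from 54.5 to 5.39 TPM for Rarg. The enzyme of synthesis Aldh1a2, a somite gene, rose from 0.208, 0.143 and 0.18 CPM to 5.78, 3.02 and 3.03 CPM, highest in day 5 replicate 1. Cyp26b1, which degrades retinoic acid, rose from 0.238, 0.0713 and 0.120 CPM to 14.4, 27.8 and 32.6 CPM, lowest in that library. In controls the mean of Cyp26b1 was 0.0759 CPM at day 3 and 1.89 CPM at day 5, and its difference of the courses did not pass. Dhrs3, which returns retinal to retinol, fell from 2.71, 3.85 and 4.24 CPM to 1.43, 0.701 and 1.47 CPM.

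Wnt targets fell, 9 of 10, with a median of -1.90. Sp5, a direct target in posterior progenitors, was at 60.9, 63.1 and 60.5 CPM and had 1 count in all at day 5. Its ratio was 6393 with a 95% counting interval from 1106 to 243400. Lef1, a nuclear effector that is itself a target, fell from 152, 156 and 165 CPM to 24.6, 22.5 and 22.6 CPM. Axin2, the feedback inhibitor, was reduced far less, from 121, 122 and 123 CPM to 62.5, 60.5 and 58.4 CPM. Lgr5 was the member that rose, from at most 0.893 CPM to at most 1.39 CPM, with a call (adjusted p 0.048) that 6 alternatives did not keep (up to 0.19).

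Of 11 Fgf ligands and receptors 5 rose and 6 fell, though the Fgf18 call (adjusted p 0.043) was lost in 10 of 13 alternatives (up to 0.15). Fgf8, the tailbud ligand, went from 71.7, 75.5 and 75.3 CPM to 0.487, 0.366 and 0.606 CPM, and Fgf5, Fgf4 and Fgf17 fell as well. Fgf3, a hindbrain ligand, rose from 0.595, 0.25 and 0.451 CPM to 18.9, 17.8 and 15.7 CPM. Per length, Fgfr1 went from 111 to 92.7 TPM, Fgfr2 from 6.35 to 102 TPM and Fgfr3 from 0.80 to 65.9 TPM, whereas Fgfr4 went from 0.14 to 1.85 TPM and stayed the lowest of the 4 receptors. All 9 targets and feedback genes of the ERK cascade fell, under each alternative tried for the lists, with a median of -3.60. Il17rd, a feedback inhibitor, fell from 219, 196 and 216 CPM to 4.65, 3.35 and 4.30 CPM, and Etv5, a transcription factor target, from 241, 255 and 253 CPM to 6.57, 4.67 and 5.95 CPM.

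Notch genes rose, 11 of 14, with 2 falling and a median of 2.26. The ligand Dll1 went from 11.4, 9.81 and 10.5 CPM to 121, 141 and 146 CPM, and the receptor Notch1 from 44.8, 39.1 and 38.6 CPM to 261, 244 and 256 CPM. Hes5, a repressor that is a direct target in neural progenitors, went from 0.595, 0.499 and 0.481 CPM to 116, 149 and 151 CPM, a log2 fold change of 8.03 (SE 0.18, adjusted p 2.4e-17). Lfng, the glycosyltransferase that modifies the receptor, went from 1.81, 1.60 and 1.95 CPM to 119, 140 and 135 CPM. Day 5 replicate 1 was lowest for Dll1, Hes5 and Lfng, and no day 5 library overlapped a day 3 library for any of them. Dll3 and Jag2 fell, by 1.70 and 0.89 log2 units. Notch3 did not pass, at 201, 204 and 207 CPM and then 203, 190 and 197 CPM.

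The promoters of Hes5 and Lfng are shown because both genes rose from under 2 CPM to over 100 CPM and both hold a match to the site GTGGGAA, the kind that Rbpj, the DNA-binding partner of Notch, uses. The 250 bases before each start are from RefSeq on GRCm38.p6, forward strand, with capitals on the match. Hes5 (chr4:154960673-154960922) has a match on the opposite strand 226 to 220 bases before the start and another on the same strand 83 to 77 bases before it. Lfng (chr5:140607091-140607340) has a match on the same strand 109 to 103 bases before the start.
Hes5: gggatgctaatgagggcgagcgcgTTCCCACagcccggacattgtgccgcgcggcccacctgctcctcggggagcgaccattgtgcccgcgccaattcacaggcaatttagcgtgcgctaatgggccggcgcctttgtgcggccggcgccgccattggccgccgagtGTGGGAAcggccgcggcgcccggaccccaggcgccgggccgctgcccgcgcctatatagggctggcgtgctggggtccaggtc
Lfng: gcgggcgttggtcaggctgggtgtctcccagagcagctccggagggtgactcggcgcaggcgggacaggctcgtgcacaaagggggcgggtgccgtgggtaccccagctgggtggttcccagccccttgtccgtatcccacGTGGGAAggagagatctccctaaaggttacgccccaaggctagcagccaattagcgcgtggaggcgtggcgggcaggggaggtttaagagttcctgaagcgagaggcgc
On either strand the site was found in 6.38% of all 32851 promoters, in 6.22% of those of genes that rose and in 6.39% of those of genes that fell. These shares lie close to each other, and the matches describe these promoters only.

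The Bmp list was divided, with 5 of 12 up and 6 down, and the Bmp6 call (a fall, adjusted p 0.029) was lost in 7 of 16 alternatives (up to 0.16). The ligands Bmp4 and Bmp7 fell, from 2.83, 3.82 and 2.59 CPM to 0.243, 0.396 and 0.318 CPM for Bmp4. The Id genes, which are Bmp targets, rose instead, and Id2 went from 2.68, 1.71 and 1.95 CPM to 33, 36.4 and 38.6 CPM. In the Hedgehog list 7 of 11 rose and 3 fell, with a median of 1.24. The coreceptors rose: Boc from 8.81, 6.99 and 7.04 CPM to 118, 119 and 123 CPM and Gas1 from 25.2, 26.7 and 23.7 CPM to 196, 196 and 177 CPM. The target Gli1, given with the control course further on, was among those that fell. Ptch1, the receptor and target, gave no call, at 119, 106 and 116 CPM and then 125, 122 and 127 CPM, and the ligand Shh stayed at or under 0.335 CPM.

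**Figure D4:**
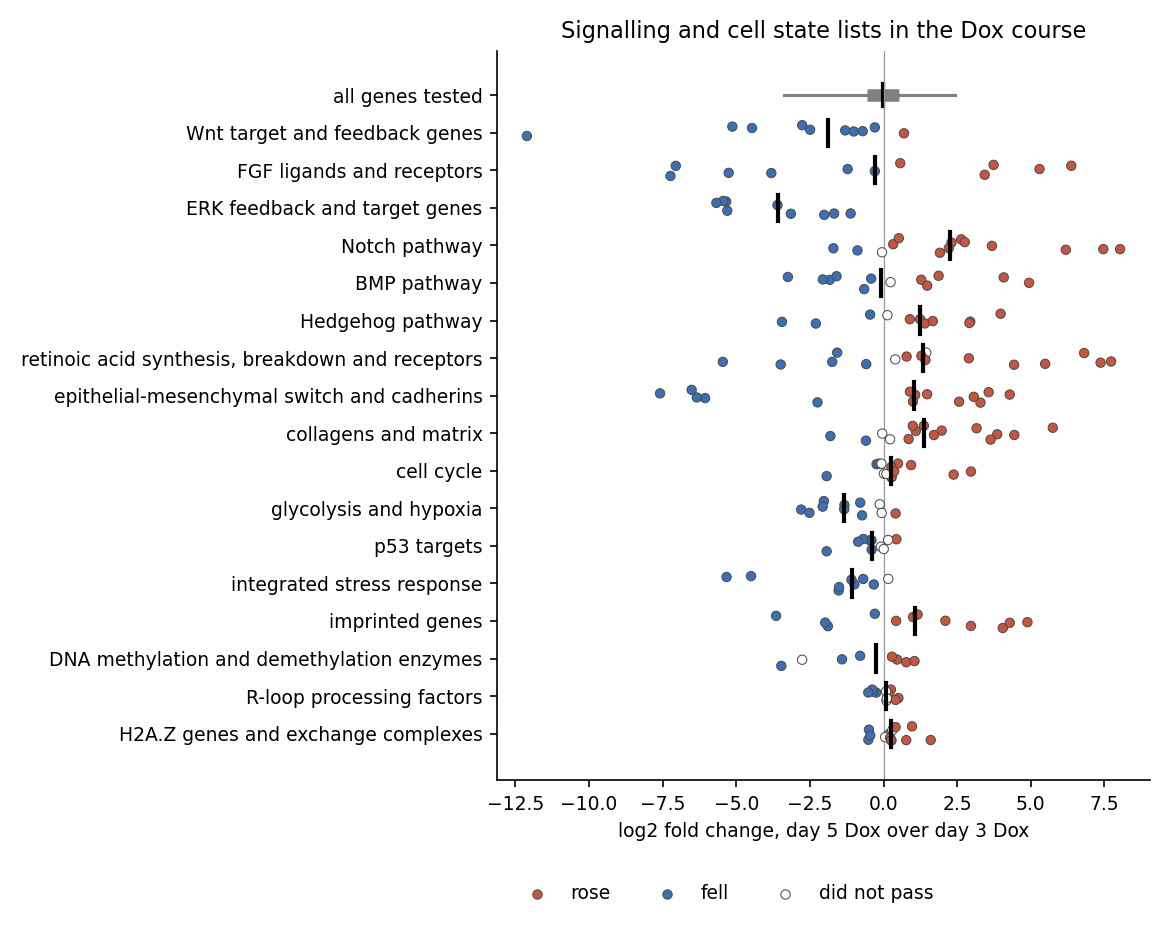
Log2 fold change from day 3 to day 5 in Dox libraries, 1 point a gene, for the signalling and cell state lists, with a black bar at the list median and colour for genes that rose, fell or did not pass. The grey box and line for all genes tested span the 25th to 75th and 5th to 95th percentiles, and the ERK list (median -3.60) lies to the left of 0 and the Notch list (2.26) mostly to the right.

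Of 14 genes of the epithelial-mesenchymal switch and cadherins 9 rose and 5 fell, with a median of 1.04. Cdh1, the epithelial cadherin, stood at 548, 605 and 576 CPM at day 3 and at 3.65, 2.47 and 2.86 CPM at day 5, a log2 fold change of -7.59 (SE 0.11, adjusted p 3.1e-19). Epcam, another epithelial adhesion molecule, fell from 162, 166 and 168 CPM to 3.23, 2.29 and 1.93 CPM, and Esrp1, an epithelial splicing regulator, from 94.1, 99.1 and 104 CPM to at most 1.40 CPM. Cdh2 rose as given above, and Zeb1, a repressor of epithelial genes, went from 7.95, 6.49 and 8.78 CPM to 66.6, 60.7 and 67.5 CPM. Snai1, which also represses Cdh1, fell from 7.65, 7.13 and 7.37 CPM to 2.19, 1.10 and 1.39 CPM.

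Matrix genes mostly rose, 11 of 15, with 2 falling and a median of 1.37, or 1.14 at the bound. Col2a1, the collagen of notochord, cartilage and early neural basement membranes, went from 9.70, 7.88 and 9.38 CPM to 200, 194 and 192 CPM. The laminin chains split: Lama1 rose from 7.74, 8.42 and 6.79 CPM to 101, 89.3 and 93.8 CPM, while Lamb1 fell from 176, 172 and 172 CPM to 56.6, 45.2 and 47.1 CPM. Fbn2, a microfibril protein, rose from 6.99, 5.17 and 6.31 CPM to 65.9, 50.9 and 49.1 CPM.

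Cell cycle genes moved little, apart from a few regulators. Of 15 tested 9 rose, 3 fell and 3 did not pass, with a median of 0.27. Ccnd2, a G1 cyclin, was the exception among the cyclins, from 200, 164 and 178 CPM to 1099, 849 and 866 CPM. Mki67, a marker of cycling cells, rose from 352, 333 and 338 CPM to 702, 612 and 641 CPM, and Ccnb1, the mitotic cyclin, gave no call, at 297, 293 and 289 CPM and then 286, 301 and 298 CPM. Cdkn1a, the p21 inhibitor and a p53 target, fell from 251, 259 and 261 CPM to 73, 64.3 and 64.5 CPM.

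Glycolytic and hypoxia-responsive genes fell, 8 of 11, with a median of -1.33. Ldha, lactate dehydrogenase, went from 1545, 1614 and 1631 CPM to 689, 604 and 606 CPM. Bnip3, a mitophagy receptor induced in hypoxia, went from 105, 106 and 106 CPM to 19.4, 18.3 and 17.8 CPM. The glucose transporters parted: Slc2a1 rose from 481, 427 and 460 CPM to 720, 566 and 529 CPM, and Slc2a3 fell from 315, 255 and 279 CPM to 174, 155 and 160 CPM. Vegfa did not pass, at 61.1, 55.2 and 62.5 CPM and then 63.5, 51.6 and 48.2 CPM.

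Genes of the integrated stress response fell, 8 of 9, with a median of -1.09. Trib3, a target of its factors, went from 23.7, 25 and 28.8 CPM to 0.973, 0.579 and 0.375 CPM. Chac1, which degrades glutathione, went from 38.3, 40 and 39.4 CPM to 2.52, 1.68 and 1.01 CPM. Atf4, the central factor, fell by 0.99 log2 units (SE 0.13, adjusted p 1.7e-06). Among p53 targets 6 of 10 fell and 1 rose, with a median of -0.41. Bbc3, which encodes the death factor Puma, was the one that rose, from 31.3, 29.1 and 29.8 CPM to 42.8, 40.6 and 38.6 CPM.

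Of 12 imprinted genes 8 rose and 4 fell, with a median of 1.08. Mest (chr6:30723547-30748465), a paternally expressed gene, went from 62.2, 66.1 and 68.2 CPM to 1113, 1355 and 1359 CPM. Igf2, a fetal growth factor, rose from 6.40, 6.24 and 6.83 CPM to 127, 102 and 93.5 CPM, and its neighbour H19 from 1.40, 1.53 and 1.74 CPM to 31.2, 54.8 and 52.5 CPM. Day 5 replicate 1 was the highest for Igf2 and the lowest for H19. Meg3, a maternally expressed non-coding RNA, fell from 834, 939 and 926 CPM to 247, 240 and 241 CPM, and Snrpn, a splicing protein gene, from 624, 697 and 687 CPM to 158, 179 and 171 CPM.

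Chromatin genes closest to the subject of the series moved in both directions. Of 11 R-loop genes 4 rose, 4 fell and 3 did not pass, with a median of 0.10, and between 3 and 6 rose across alternatives. Top1, which relieves the supercoiling behind RNA polymerase, rose from 208, 208 and 200 CPM to 277, 271 and 269 CPM, and Aqr, a helicase, fell from 225, 217 and 220 CPM to 159, 152 and 151 CPM. The 3 RNase H2 subunits rose by 0.25 (Rnaseh2a), 0.17 (Rnaseh2b) and 0.50 (Rnaseh2c) log2 units, and the Rnaseh2b call (adjusted p 0.034) was lost in 6 alternatives (up to 0.098). Of 13 genes of H2A.Z and its remodellers 8 rose and 3 fell, with a median of 0.26. H2afv, which encodes the other H2A.Z protein, rose from 70.3, 67.4 and 65.7 CPM to 190, 214 and 213 CPM, and H2afz, the main H2A.Z gene, stood at 723, 711 and 718 CPM and then at 768, 843 and 831 CPM. The H2afz call (log2 fold change 0.18, adjusted p 0.025) was lost when any of 5 libraries was left out (up to 0.092). The deposition factor Vps72 rose from 65.6, 66.4 and 66.1 CPM to 120, 136 and 130 CPM, the H2A.Z chaperone Anp32e rose from 211, 204 and 209 CPM to 340, 359 and 365 CPM, and Ino80 fell from 53.2, 54.3 and 55.4 CPM to 40.1, 37.2 and 36.5 CPM. DNA methylation genes showed 4 of 8 up and 3 down, with Tet1 falling by 1.41 and Tet3 rising by 1.05 log2 units.

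Outside the lists, the genes with the largest changes were of several kinds. The rising ones included Fam181a, with 30.4, 33.6 and 34 CPM at day 5 and 2 counts at day 3, Vit, a matrix protein gene, at 13.8, 17 and 17.8 CPM, and Arg1, the arginase, at 9.58, 7.74 and 7.68 CPM. Islr had no count at day 3 and stood at 7.45, 6.68 and 5.54 CPM, at least 68.7-fold higher. Among the falling ones Vrtn, a gene linked to vertebral number, went from 141, 157 and 154 CPM to 0.274, 0.396 and 0.318 CPM. Pllp, a membrane protein gene, was at 9.76, 11 and 10.4 CPM and had no count at day 5, at least 116-fold lower. Foxi3, a forkhead factor of ectoderm, went from 14.4, 14.6 and 12.8 CPM to at most 0.0578 CPM.

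Abundant transcripts shifted as well. By gain in TPM the leading genes after Crabp1 and Crabp2 were Mdk, a heparin-binding growth factor (993.5, 930.6 and 985.2 TPM to 2377, 2168 and 2169 TPM), Nnat, Tmsb10 and Marcksl1. Nnat, an imprinted membrane protein gene, went from 20.6, 16.2 and 19.8 TPM to 851, 1096 and 1128 TPM. By loss in TPM the leading genes were mt-Atp8, Rplp1, Eef1a1, Rps12, Eno1 and Gapdh. The place of mt-Atp8, a very short gene (chrM:7766-7969), rests on the scaling for length. Its mean went from 1077 to 844.5 CPM, a log2 fold change of -0.35. Eno1, a glycolytic enzyme, fell from 2586, 2634 and 2620 TPM to 1288, 1195 and 1165 TPM. Eef1a1, the translation elongation factor, went from 14070, 14120 and 14250 CPM to 11010, 11380 and 11030 CPM. Ribosomal and glycolytic genes have processed pseudogenes, between which the counting could divide reads.

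The control course over the same days asks which of these changes were particular to Dox, and the 2 courses share no library. In the control course 5637 genes rose (31.7%) and 5886 fell (33.1%), so 64.8% were called. Of the genes that rose, 5071 rose in both, which is 88.5% of the Dox list and 90.0% of the control list, and of those that fell, 5215 fell in both (89.0% and 88.6%). Across genes, which are not independent replicates, the log2 fold changes of the courses had a Pearson correlation of 0.926. Of the genes switched on with Dox 55 met the same limits in the control course, and of those switched off 67 did. The courses differed from each other, by the test of the difference, at 146 genes (0.82%), of which 63 (0.354%) had a higher log2 fold change with Dox and 83 (0.466%) a lower one. An unadjusted p under 0.05 was seen for 1479 genes. For genes with few or no counts at 1 of the days the difference was poorly determined. Hoxb9 had a mean of 118.6 CPM at day 5 with Dox and 244.6 CPM in controls. Its difference of -1.32 (SE 0.80) was not called. Hoxb5os, without a count at day 3 in either course, had an SE of 3534. A gene switched on or off without such a call is therefore not shown to have followed the same course. The counts moved with the libraries and the test used: DESeq2 gave 164 higher and 158 lower, and leaving out 1 library gave between 19 and 59 higher and between 26 and 96 lower. Of the 146 genes, 102 changed in the same direction in both courses, 16 were called with Dox alone, 19 in the control course alone, and 9 in opposite directions.

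Among the 392 list members tested, 16 differed between the courses, and 25 did with the replicate block. The largest such difference was at Pax1 (chr2:147361925-147393295), a sclerotome factor. Pax1 stood at 0.238, 0.178 and 0.120 CPM at day 3 and at 0.396, 0.610 and 0.635 CPM at day 5 with Dox, against 0.133, 0.231 and 0.179 CPM and then 4.54, 4.91 and 5.07 CPM in controls. It rose in both, and the Dox course was lower by 3.10 log2 units (adjusted p 0.0033). Gli1, the Hedgehog target, fell from 30.9, 30.6 and 32.8 CPM to 8.34, 5.49 and 5.34 CPM with Dox, and from 32.2, 29.5 and 29.6 CPM to 14.4, 19.8 and 16.6 CPM in controls. The difference was -1.45 (adjusted p 0.00064). The day 5 libraries of the 2 conditions did not overlap for either gene.

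Cdh1 fell further with Dox, to at most 3.65 CPM against 5.39, 6.30 and 5.84 CPM in controls (difference -0.996, adjusted p 0.0013). Cdkn1a differed by -0.75 (adjusted p 0.0013), with day 5 controls at 114, 122 and 122 CPM, and Sesn2, another p53 and stress target, by -0.55 (adjusted p 0.0041). Tbx3 stood at 1.25, 1.52 and 1.44 CPM at day 5 with Dox, where it fell, and its control log2 fold change was 0.24 (difference -1.32, adjusted p 0.0013). With limma-voom its adjusted p was 0.05. Fabp7, a fatty acid binding protein of radial glia, was the neural progenitor gene with a difference, at 1.04 (adjusted p 0.022), and 7 of 12 fits without 1 library lost that call (adjusted p 0.018 to 0.081).

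Outside the lists, Slc44a5, a choline transporter-like gene, rose to 19.8, 20 and 23.1 CPM with Dox and to 4.88, 5.29 and 5.38 CPM in controls (difference 1.76, adjusted p 0.0002). Atp1b2, a sodium pump subunit, fell less with Dox, to 12.5, 11.6 and 11.6 CPM against 4.07, 4.82 and 3.37 CPM (difference 1.49, adjusted p 0.00015). Ifitm1, an interferon-inducible membrane protein, fell with Dox from 43.2, 39.6 and 40.2 CPM to 26.6, 20.9 and 17.7 CPM and rose in controls from 34.4, 36.8 and 32.8 CPM to 40.2, 61.8 and 56 CPM. Cabp1, a calcium-binding protein of neurons, did not pass with Dox, at 4.70, 5.17 and 4.33 CPM and then 6.11, 4.42 and 6.12 CPM, and reached 15.9, 16.9 and 17.8 CPM in controls.

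Opposite calls in the 2 courses were made for 14 genes, and 9 of these also passed the test of the difference: Actn3, Ttyh1 and Tnip1, which rose with Dox, and Ifitm1, F11r, Cxcl12, Efemp1, Slc39a14 and Dgkz, which fell with Dox. These 9 were named after their values were seen. F11r, a tight junction protein, had a log2 fold change of -0.28 with Dox and 1.02 in controls (difference -1.31, adjusted p 0.00061). Cxcl12, a chemokine, had -0.24 and 0.63 (difference -0.87, adjusted p 0.00023). In both genes the control change was larger than the Dox change.

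**Figure D5:**
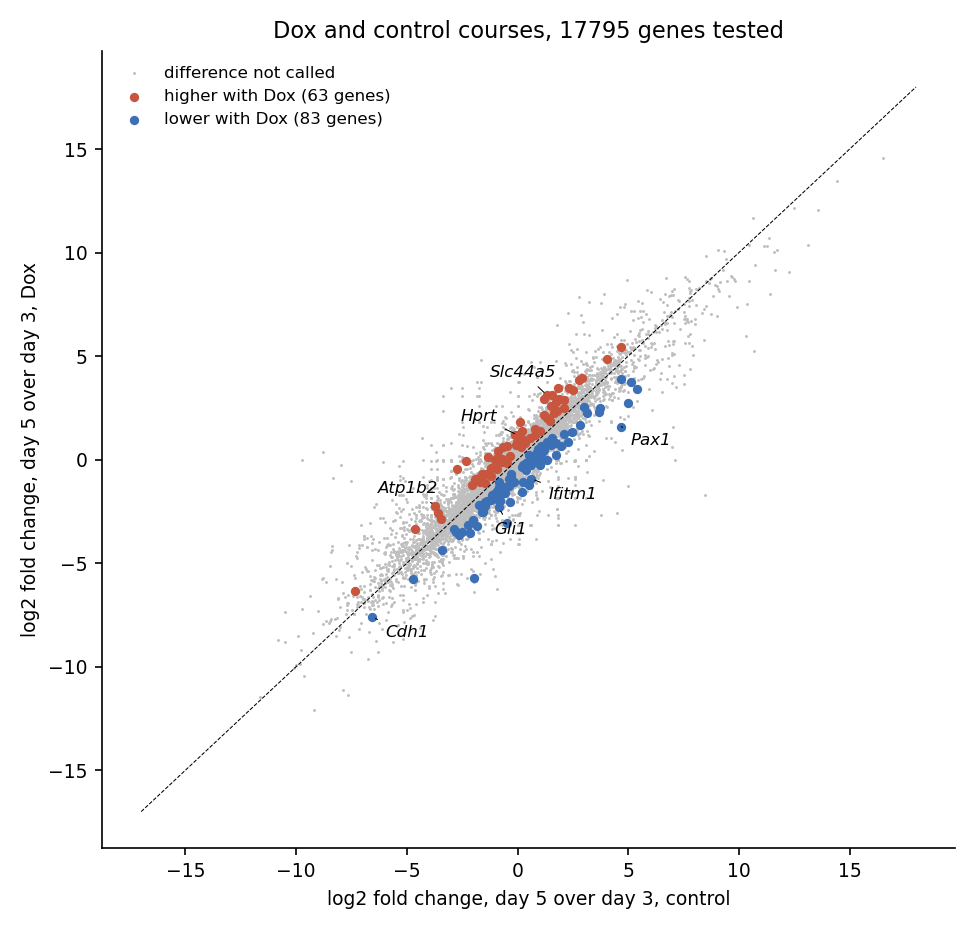
Log2 fold change from day 3 to day 5 with Dox (vertical axis) against that in controls (horizontal axis), 1 grey point a tested gene, with the 63 genes higher and 83 genes lower with Dox in red and blue and the dashed line of equal change. The points follow that line (Pearson correlation 0.926), and Pax1, Gli1 and Cdh1 lie below it and Hprt, Slc44a5 and Atp1b2 above it.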

How the data were processed

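Poly(A) RNA of 6 Dox libraries (3 at day 3, 3 at day 5) was compared, within 18 libraries in 6 groups of 3. Per the labels' protocols, a stranded mRNA kit was used. Per the submitters' processing notes the tools were STAR 2.7.10a, RSEM 1.3.3, DESeq2 1.38.2 and Trimmomatic and the build was GRCm38, with no roles given, and whether the counting used strand and which annotation was used are not given in the sources used here. The authors deposited expected counts per gene, as RSEM estimates them, of which 6.54% to 7.49% per library are not whole. They were rounded here. The authors also deposited TPM, used for levels between genes, and FPKM values were not used.

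Of 55401 genes listed, 55141 were matched to GENCODE M21 symbols by identifier, and the 260 others held 0.0053% of counts. Symbols on several identifiers (106) were left out. Genes were kept with edgeR's filterByExpr (minimum count 10, minimum total 15), which left 17795. The test was edgeR's quasi-likelihood fit (edgeR 4.0.16, R 4.3.3) of all 18 libraries with TMM factors, a mean for each group and 12 residual degrees of freedom, with Benjamini-Hochberg adjustment over all genes. The common biological coefficient of variation was 0.09. The difference of the courses is the interaction of day and Dox. The fit was run before use on simulated counts with a small set of genes changed in day 5 Dox alone and the same spread for all genes. That does not test the scaling or the spread where most genes change. Ratios against a group of 1 to 3 counts carry an exact binomial 95% interval, and those against a group without counts use a floor of 3 counts per library. Both cover counting error only. Depth was 27302352 to 32692650 counts per library in the 6 Dox libraries.

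No replicates were duplicates. Pairs of day 3 Dox replicates had a median chi-square of 0.751 to 0.965 over genes. Pairs of day 5 Dox replicates had 0.82 to 1.74, the widest being replicate 1 against the others. Pairs of day 0 replicates, which are in the same fit, were less alike, at 2.35 to 4.82. The labels give the replicate number as a batch, so same-numbered libraries were treated as paired through that label in an alternative fit. Deviations from the group means of same-numbered day 3 and day 5 Dox libraries correlated between -0.014 and 0.001, and those of other numbers between -0.016 and 0.023. Control and Dox libraries of day 0 with the same number correlated at 0.234, 0.206 and 0.331, against -0.252 to 0.055 for other numbers. The same-numbered values were 0.036, 0.026 and 0.010 at day 3 (other numbers -0.043 to 0.0205). At day 5 they were 0.051, 0.041 and 0.022 (other numbers -0.057 to 0.020).

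The members and the 41 gene lists were chosen with earlier results of these data known. The named genes are Rnaseh1 and Hprt, the 12 largest rises and 12 largest falls of called genes with a mean of at least 5 CPM in the higher group, libraries that do not overlap and no placeholder symbol, the 6 largest gains and losses in TPM, the 6 largest differences of the courses in each direction at 5 CPM or more, and list members. A few of these genes are not reported here. Alternatives were DESeq2 1.42.0, limma-voom (limma 3.58.1), other scalings, filters and thresholds, fits of 12 or 6 libraries, the replicate block and leaving out each library. Promoter sequences are from RefSeq on GRCm38.p6.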

Additional observations from a re-analysis of the deposited data

Results flagged for a closer look

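Among the genes named by rule or on the lists and reported here, 24 had a Dox course that differed from the control course by the test of the difference itself (edgeR's quasi-likelihood interaction, adjusted p under 0.05). Of the 146 genes with such a difference, those 24 are given here (the genes with opposite calls in the courses stand with the control course) as the log2 fold change with Dox less that in controls. No explanation for them was tested.

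For 10 of the 24 the call held in every other fit, scaling, filter and omitted library tried. Higher with Dox were Hprt (1.14), Slc44a5 (1.76) and Atp1b2 (1.49). Lower with Dox were Pax1 (-3.10), Ifitm1 (-1.52), Cabp1 (-1.49), Gli1 (-1.45), Cdh1 (-0.996), Cdkn1a (-0.75) and Sesn2 (-0.55). The last 3 of these lie under 1 log2 unit and would not pass a required difference of that size. The highest adjusted p over the other alternatives was 0.039, for Pax1.

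The other 14 lost the call in at least 1 of them. Neural genes among them were Fabp7 (1.04), Grm4 (1.68), a glutamate receptor, and Celf3 (1.62), a neuronal splicing factor. Pde1b (1.56), a phosphodiesterase, and Esrp1 (0.99) were also higher with Dox, and their adjusted p reached 0.25 and 0.20. On the lower side stood the retinoid genes Dhrs3 (-1.77) and Rarg (-0.73), the receptor Fgfr4 (-1.96, adjusted p up to 0.22), Tbx3 (-1.32), the imprinted adaptor Grb10 (-1.02), the growth factor Mdk (-0.49), the glucose transporter Slc2a1 (-0.59), the stress target Asns (-0.59) and the p53 target Bbc3 (-0.73).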

How the results depend on the processing

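Of 367 listed or named genes called in the Dox course, 327 kept their direction and call under each of 16 other fits, scalings, filters and omitted libraries, 19 more kept them wherever they were tested but were not tested in at least 1, 21 lost the call in at least 1, and no called result reversed. Beside those given above, Nr5a2, Dcx, Amn, Hoxa10, Notch2, Col3a1, Ccnd1, Atf5 and Igf2r lost it in 1 to 4. A required change of 1 log2 unit would drop 84 of the 367. Counts for the Dox course were 5378 to 5479 higher and 5514 to 5592 lower without 1 replicate, and 2341 and 2679 where 1 log2 unit of change or more was asked for. The control course gave 5241 to 5417 and 5474 to 5683 without 1 replicate, and 2254 and 2776 at that size.

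The difference of the courses was less stable. Its 63 higher and 83 lower genes became 19 to 59 and 26 to 96 without 1 replicate. Omitting day 5 Dox replicate 3 gave the lowest counts (19 and 26), omitting day 5 Dox replicate 2 gave 24 and 30, and omitting any day 3 library gave 26 to 40 and 37 to 46. Of the day 5 control libraries, replicates 2 and 3 gave 32 and 28 higher and 44 and 31 lower genes, and replicate 1 gave 54 and 63. It gave 164 and 158 with DESeq2, 175 and 210 with no filter on low counts, 243 and 320 in the 12 libraries of day 3 and day 5, and 26 and 28 at an absolute log2 difference of at least 1. The cause of these shifts was not tested.

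The fit with the replicate block gave the difference 84 higher and 108 lower genes. Among listed and named genes the block added calls in the Dox course for Cdk1, Dnmt3l, Srcap and Tek, lost that of Fgf18 and changed no other call in that course. It lost the difference of Fgfr4 and added a difference for Ccnd2, Col2a1, Etv4, Fbn2, Foxa2, Peg3, Phgdh, Phlda3, Psat1 and Tek.

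With library size alone 52.6% of Dox course calls were rises, against 49.5% with TMM and 50.7% with RLE factors. Depth limits genes near 3 counts per library. No fold is given where both groups lie there, and ratios against 1 to 3 counts carry wide counting intervals.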
